A study of Mus musculus with 6 samples.

Results

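Formins are actin nucleators that share a formin homology 2 domain. A dimer of this domain stays on the growing barbed end of an actin filament, while the neighbouring proline-rich region feeds it actin bound to profilin. Many formins are held closed by their own ends until they are activated, and the unbranched filaments they make enter stress fibres, filopodia, the cytokinetic ring and the actin around the nucleus. In fibroblasts and cancer cells, Fmn2 is known for perinuclear actin that accompanies passage of the nucleus through narrow spaces.

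The 10 formin genes described here (Fmn1, Fmn2, Fhod1, Fhod3, Diaph1, Diaph3, Daam1, Inf2, Fmnl2 and Fmnl3) were taken by gene identifier from a table of 55335 genes, and all 10 were among the 15881 genes with enough reads to be tested. The cells were wild-type mouse embryonic fibroblasts (MEF), which are connective tissue cells kept in adherent culture. Confine denotes MEF cells that had crossed a transwell membrane with 3 μm pores and were collected after 15 h, and Ctrl denotes the parental MEF cells. Passage through the pores, growth on the membrane, any difference in serum and selection of the cells that crossed cannot be told apart in this comparison. The authors' transwell method, described for another pore size, had serum only below the membrane. Whether this held for the 3 μm pores is not stated. Confine replicates 1 and 2 had the same value in each of the 55335 genes. They stand as 1 library, called here the repeated Confine library, and 3 Ctrl libraries were compared with 2 Confine libraries. No label says that the libraries came from separate cultures, so the p-values measure the spread between these libraries, which may be technical.

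The libraries held from 22287210 to 32537550 counts, and a floor of 3 counts corresponded to between 0.101 and 0.128 normalized CPM (counts scaled to a common library size). Of 12 fibroblast markers, 9 were tested, and their summed level was 8763 to 9629 normalized CPM in Ctrl and 15747 to 16520 in Confine. Vim, which encodes vimentin, had a mean of 3476 normalized CPM in Ctrl, and Col1a1, a chain of fibrillar collagen, had 2353. The fibroblast markers Thy1, Dcn and Lum stayed under 1 normalized CPM in every library. Markers of other cell types were scarce. Of 10 leukocyte genes, 6 stayed under 1 normalized CPM everywhere, and the sum was 15.9 to 18.2 in Ctrl and 35.8 to 41.5 in Confine, with Cd68 called higher and Lyz2 called lower. Of 10 striated muscle genes, 8 stayed under 1 normalized CPM, Myh7, Actn2 and Myod1 were at 0 counts, and the sum was 7.77 to 8.92 in Ctrl and 16.5 to 25.8 in Confine through Des and Tnnt2. Of 9 neuronal genes, 6 stayed under 1 normalized CPM, Rbfox3 and Elavl4 were at 0 counts, and the sum was 30.4 to 42.2 in Ctrl and 24.2 to 24.9 in Confine. The 8 epithelial genes summed to between 0.415 and 0.794 in Ctrl and between 4.02 and 8.77 in Confine, almost all of it Krt19, with Epcam, Krt18 and Cldn4 at 0 counts. The 7 endothelial genes summed to between 0.595 and 1.36 in Ctrl and between 2.43 and 2.70 in Confine, most of it Vwf, with Tie1 and Emcn at 0 counts.

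The sequences around the start sites of the genes that the results turn on are given first. The table of promoter windows from RefSeq (GRCm38.p6, 250 bases before to 50 bases after a start site) held 8 of the 10 formins, all but Fhod3 and Diaph1. The windows of Fmn2 and Inf2, genes that rose in Confine, and of Diaph3, the member that fell, are shown (for Inf2, the window at the annotated gene start) 5′ to 3′ along the gene. Capitals mark 3 motifs on either strand. The core of the hypoxia response element is ACGTG, or GCGTG in its other form, and TEAD factors are known to read GGAATG.
Fmn2 (chr1:174501575-174501874, plus strand): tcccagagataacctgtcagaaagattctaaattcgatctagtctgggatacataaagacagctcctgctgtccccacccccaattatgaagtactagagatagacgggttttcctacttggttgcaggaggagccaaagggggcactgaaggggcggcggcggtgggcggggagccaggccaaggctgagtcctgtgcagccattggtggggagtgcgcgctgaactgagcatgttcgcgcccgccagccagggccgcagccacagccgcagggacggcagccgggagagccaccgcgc
Inf2 (chr12:112588534-112588833, plus strand): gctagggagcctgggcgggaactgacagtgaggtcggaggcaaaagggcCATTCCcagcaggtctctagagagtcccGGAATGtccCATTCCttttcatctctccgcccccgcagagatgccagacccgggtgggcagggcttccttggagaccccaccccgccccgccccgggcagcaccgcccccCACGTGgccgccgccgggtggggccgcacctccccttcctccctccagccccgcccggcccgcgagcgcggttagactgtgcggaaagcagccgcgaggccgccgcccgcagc
Diaph3 (chr14:87141175-87141474, minus strand): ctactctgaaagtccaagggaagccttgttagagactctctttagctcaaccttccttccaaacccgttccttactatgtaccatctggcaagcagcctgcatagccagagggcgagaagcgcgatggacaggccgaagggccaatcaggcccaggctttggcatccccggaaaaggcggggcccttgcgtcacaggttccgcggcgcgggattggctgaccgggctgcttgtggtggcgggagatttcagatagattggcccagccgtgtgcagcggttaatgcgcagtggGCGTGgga

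The Inf2 window held 2 matches to ACGTG, at positions -63 to -59 and -62 to -58 from the start site counted as 0, which are the same palindrome read on both strands. ACGTG was present in 19.6% of all 32851 promoter windows of this length. A second window of Inf2, from a start site slightly upstream, reached a further match and so held 3, as did 1.73% of windows (3 or more). The Inf2 window also held 3 matches to GGAATG, a motif present in 14.7% of the windows and at least 3 times in 0.131% of them. Fmn2 matched none of the 7 motifs searched on both strands. These were the 3 above, the CHR element TTTGAA, the E2F letters TTTGGCGC with the E2F variant TTTCCCGC, and the CArG box of SRF. Diaph3 matched GCGTG once, at positions 42 to 46, as did 32.4% of windows at least once, and matched neither the CHR nor the E2F letters, which are known from cell cycle genes. Of the other formins, Fmn1 held the E2F letters TTTGGCGC, found in 0.514% of windows, along with GGAATG, 2 matches to GCGTG and, in its second window, the CHR element, found in 17.9%. Fhod1 held TTTCCCGC, found in 1.07%, Fmnl3 held GGAATG besides GCGTG, and Fmnl2 and Daam1 held GCGTG. These matches describe letters and no binding was measured.

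Between Confine and Ctrl, 5 of the 10 formins were higher in Confine, Diaph3 was lower, and the other 4 did not pass the test. Calls required a log2 fold change beyond 1.5 in either direction with an adjusted p under 0.05. Fmn2 and Fhod3 passed, and both were higher. In bulk RNA, a change in how many cells express a gene and a change per cell cannot be told apart. Of all tested genes, 8.00% were called, 4.89% higher and 3.11% lower. On the adjusted p alone, 6 of the 10 formins passed, 5 higher (Fmn1, Fmn2, Fhod3, Inf2 and Fmnl2) and 1 lower (Diaph3), where 23.0% of all tested genes passed, 12.8% higher and 10.2% lower. The median log2 fold change of the 10 formins was 0.53 and that of all tested genes was -0.0021. In 8 of the 10 formins the normalized CPM of the groups did not overlap, 7 higher and 1 lower in Confine, and the same was true of 49.5% of all tested genes, 25.9% higher and 23.6% lower. The exact permutation test over these 5 libraries cannot give a p below 0.1, so the tests below are those of edgeR's quasi-likelihood fit over all genes with Benjamini-Hochberg adjustment. With library size alone in place of the TMM normalization, the median of all tested genes moved to -0.21, and 47.8% of all called genes were higher in place of 61.1%.

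**Figure D1:**
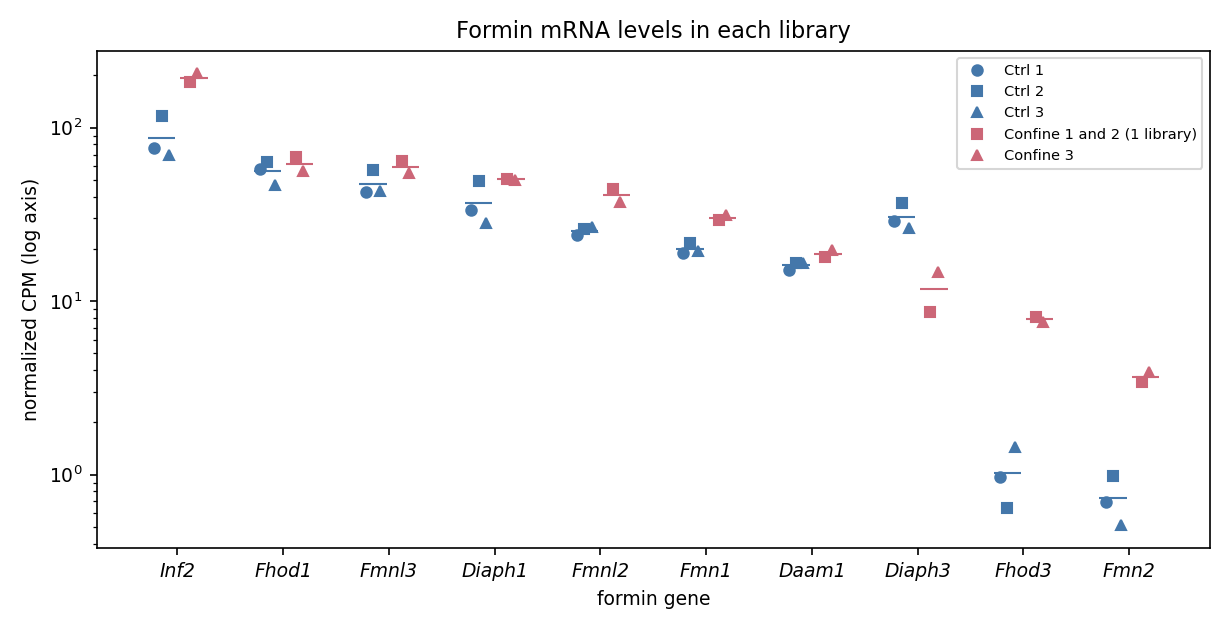
Normalized CPM (log axis) of each of the 10 formins in the 3 Ctrl libraries (blue) and the 2 different Confine libraries (red), with horizontal lines at the group means. Fmn2 and Fhod3 are the lowest of the 10 in Ctrl and rise furthest, and Diaph3 is the member whose Confine points both lie under the Ctrl points.

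Of the 10, Fmn2 and Fhod3 were the least abundant formins of the parental cells and the ones with the largest fold changes. Fmn2, whose protein works with Spire proteins and is best known from the meiotic spindle of the oocyte, lies on chromosome 1 from 174501825 to 174822729 (GRCm38, plus strand). Ctrl libraries held 20, 26 and 12 counts of Fmn2, against 101 in the repeated Confine library and 98 in Confine replicate 3. The corresponding levels were 0.691, 0.983 and 0.510 normalized CPM in Ctrl and 3.41 and 3.89 in Confine. Both Confine libraries stood well above all 3 Ctrl libraries, and the exact Poisson 95% intervals, which cover counting error only, did not touch: the highest Ctrl bound was 1.44 and the lowest Confine bound 2.78. This was a log2 fold change of 2.31 (SE 0.37, edgeR adjusted p = 1.44e-04). Tested against a change of 1.5 itself, by glmTreat of edgeR, Fmn2 had an adjusted p of 0.178. The summed neuronal markers, from a tissue where Fmn2 is abundant, were lower in both Confine libraries than in any Ctrl library. Most of this sum came from Tubb3 and Stmn2, with means of 17.0 and 15.3 normalized CPM in Ctrl. Of the 4 tested neuronal genes, Syn1 went the other way, with a log2 fold change of 1.33 (edgeR adjusted p = 0.126). The part of neuronal genes in the Fmn2 value was not tested.

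Fhod3 encodes a formin that organises sarcomeres in heart muscle. It lies on chromosome 18 from 24708623 to 25133501 (GRCm38, plus strand). It had 28, 17 and 34 counts in Ctrl, 240 in the repeated Confine library and 191 in Confine replicate 3, or 0.967, 0.642 and 1.45 against 8.11 and 7.58 normalized CPM. The Confine libraries were close to each other, and the lowest of their Poisson bounds, 6.55, was above the highest Ctrl bound, 2.02. On the log2 scale the difference was 2.95 (SE 0.32, edgeR adjusted p = 2.24e-06), the largest of the 10 formins, and 0.00217 was the adjusted p against the cutoff itself by glmTreat, which no other formin passed. Tpgs2, on the opposite strand, overlaps the gene body of Fhod3 without exonic overlap and averaged 868.6 counts, where Fhod3 averaged 102. The sources used here do not say whether counting used the strand. Of the striated muscle genes that Fhod3 is usually seen with, Des had a log2 fold change of 1.43 and Tnnt2 of 1.42 (edgeR adjusted p = 2.59e-04 and 0.00169), while Myh7 and Actn2 were at 0 counts. The part of such genes in the Fhod3 value was not tested.

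The tested genes whose pattern over the 5 libraries was closest to that of Fmn2 were Pcgf5, Adam19 and Whamm. Their root mean square differences from it were 0.0889, 0.104 and 0.121 in log2 CPM centred on the Ctrl mean. Pcgf5 encodes a Polycomb group protein, Adam19 a membrane metalloprotease and Whamm an activator of the Arp2/3 complex, the other main actin nucleator. Adam19 had 5.08, 5.93 and 4.04 normalized CPM in Ctrl and 22.3 and 24.8 in Confine. Whamm had 2.66, 3.63 and 2.04 in Ctrl and 10.2 and 14.0 in Confine. Closest to Fhod3 were Map2k6, a kinase that activates p38, and the low genes Plxdc1 and 4732465J04Rik, at 0.116, 0.141 and 0.187. Map2k6 had 4.77, 3.06 and 7.10 normalized CPM in Ctrl and 31.6 and 33.9 in Confine. Within 0.25 of the pattern there were 38 genes for Fmn2 and 15 for Fhod3. The measure adds a prior count that shrinks low genes, so Plxdc1 and 4732465J04Rik, which were at or near 0 in Ctrl, lie close to Fhod3 although their fitted log2 fold changes were 3.84 and 5.03.

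Inf2, the most abundant formin in both groups, rose by more CPM than all the others together. Its protein both assembles and severs filaments and is known at the endoplasmic reticulum, where it acts in mitochondrial fission. The gene lies on chromosome 12 from 112588784 to 112615557 (GRCm38, plus strand). It had 76.7, 117 and 69.6 normalized CPM in Ctrl and 182 and 206 in Confine. Ctrl replicate 2 was the highest of the Ctrl libraries and was still clearly under both Confine libraries. The means were 87.7 ± 25.5 normalized CPM (SD, n = 3) and 194 ± 16.5 (SD, n = 2), a ratio of 2.21. In the edgeR fit the log2 fold change came to 1.15 (SE 0.21, adjusted p = 5.21e-04), below the cutoff of 1.5, and 1.40 without Ctrl replicate 2.

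Diaph3 fell. It encodes mDia2, a formin best known from the contractile ring of dividing cells, and lies on chromosome 14 from 86655367 to 87141235 (GRCm38, minus strand). It had 29.0, 36.5 and 26.3 normalized CPM in Ctrl, 8.65 in the repeated Confine library and 14.8 in Confine replicate 3. Both Confine libraries were under every Ctrl library, and they differed from each other more than for any other formin relative to their mean. edgeR put the difference at -1.39 on the log2 scale (SE 0.24, adjusted p = 3.06e-04). This value lies close to the cutoff: without Confine replicate 3 it was -1.82 and without Ctrl replicate 3 it was -1.502, which are both past the cutoff, and without the repeated Confine library it was -1.04. With library size alone it was -1.60 and with the identical columns counted as 2 samples -1.53, again past the cutoff.

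The 15 genes listed for cytokinesis and mitosis were all lower in Confine with an adjusted p under 0.05, and 7 of them were called. Of all tested genes, 10.2% were lower at that threshold and 3.11% were called lower. Their median log2 fold change was -1.44, against -1.39 for Diaph3. Ect2, an exchange factor that acts at the division plane, fell by 2.24 on the log2 scale (edgeR adjusted p = 7.78e-06). Racgap1, which binds Ect2 as part of the centralspindlin complex, fell by 1.90, and Kif23, the kinesin of that complex, fell by 1.62 (edgeR adjusted p = 5.88e-06 and 7.77e-06). The kinase Plk1 fell by 1.96, cyclin Ccnb1 by 1.76 and the kinase Aurka by 1.63. Of members below the cutoff, Top2a had a log2 fold change of -1.24, Cdk1 of -1.31 and Cit, citron kinase, of -0.91, each with an adjusted p under 0.05. In all 15 genes the repeated Confine library was lower than Confine replicate 3, the same order as for Diaph3. This order is a single difference between libraries, and its share over all tested genes was not counted. The summed level of the 15 genes was 637 and 918 normalized CPM in these Confine libraries against 1956 to 2092 in Ctrl. Stretches of 100 bp or longer with at least 95% identity link Racgap1 to 16 other genes, Kif23 to 10, Top2a to 8, Ccnb1 to 5 and Plk1 to 1, so some of their reads could have been counted elsewhere.

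**Figure D2:**
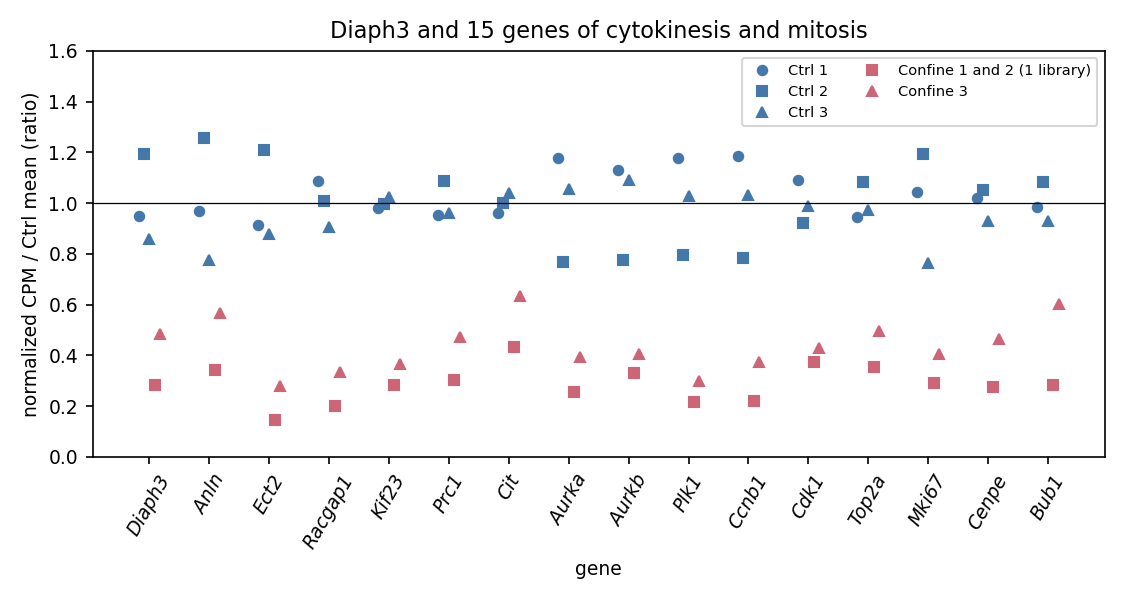
Normalized CPM of Diaph3 and of 15 genes of cytokinesis and mitosis in each library, divided by the mean of the 3 Ctrl libraries (line at 1). All Confine points (red) lie under all Ctrl points (blue), and in each of the 16 genes the repeated Confine library (square) lies under Confine replicate 3 (triangle).

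Smaller rises were seen in Fmnl2 and Fmn1. Fmnl2, a formin of lamellipodia and filopodia that binds Cdc42, lies on chromosome 2 from 52857860 to 53133804 (GRCm38, plus strand). It had 23.9, 26.0 and 26.6 normalized CPM in Ctrl and 44.4 and 37.1 in Confine, with no overlap. This was a log2 fold change of 0.67 (SE 0.18, edgeR adjusted p = 0.0109). The adjusted p became 0.0618 without Ctrl replicate 1, 0.175 without the repeated Confine library and 0.0705 with library size alone. Fmn1, the limb deformity gene, whose protein acts at cell junctions and on microtubules, lies on chromosome 2 from 113327736 to 113716767 (plus strand). It had 18.9, 21.6 and 19.4 normalized CPM in Ctrl and 29.3 and 31.2 in Confine, again with no overlap. On the log2 scale the difference was 0.60 (SE 0.18, edgeR adjusted p = 0.0227). The adjusted p of Fmn1 was 0.107 without Ctrl replicate 1, 0.0586 without Ctrl replicate 3, 0.105 without the repeated Confine library, 0.186 without Confine replicate 3 and 0.135 with library size alone.

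For the other 4 formins the difference did not pass the test. Diaph1 encodes mDia1, a formin of stress fibres, and lies on chromosome 18 from 37843601 to 37935476 (GRCm38, minus strand). It had 33.7, 49.0 and 28.2 normalized CPM in Ctrl and 50.7 and 50.2 in Confine, so that Ctrl replicate 2 nearly reached the Confine libraries. In the edgeR fit the log2 fold change came to 0.45 (SE 0.21, adjusted p = 0.146), and 0.70 (edgeR adjusted p = 0.00513) without Ctrl replicate 2. Fmnl3, a formin of filopodia, lies on chromosome 15 from 99317225 to 99370482 (minus strand) and had 42.8, 56.9 and 42.9 normalized CPM in Ctrl and 64.2 and 54.4 in Confine. The groups overlapped through Ctrl replicate 2. edgeR put the difference at 0.32 on the log2 scale (SE 0.19, adjusted p = 0.260), and 0.47 (edgeR adjusted p = 0.0395) without Ctrl replicate 2.

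Ctrl replicate 2 was the highest Ctrl library in 8 of the 10 formins, and in 39.9% of all tested genes. Daam1, an effector of Dishevelled in planar cell polarity, lies on chromosome 12 from 71831078 to 71992333 (plus strand). It had 15.1, 16.6 and 16.6 normalized CPM in Ctrl and 18.0 and 19.6 in Confine, the narrowest gap of the formins whose groups did not overlap apart from Diaph1. This was a log2 fold change of 0.23 (SE 0.19, edgeR adjusted p = 0.446). Fhod1, a formin of stress fibres and of the actin cables that move the nucleus, lies on chromosome 8 from 105329163 to 105347953 (minus strand). It had 57.9, 63.2 and 47.0 normalized CPM in Ctrl and 67.8 and 56.3 in Confine, and the groups overlapped. On the log2 scale the difference was 0.15 (SE 0.19, edgeR adjusted p = 0.637), and -0.063 with library size alone. Exons of Fhod1 overlap those of Tmem208 on the opposite strand by 116 bp, and Tmem208 averaged 4362 counts, where Fhod1 averaged 1575.

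**Figure D3:**
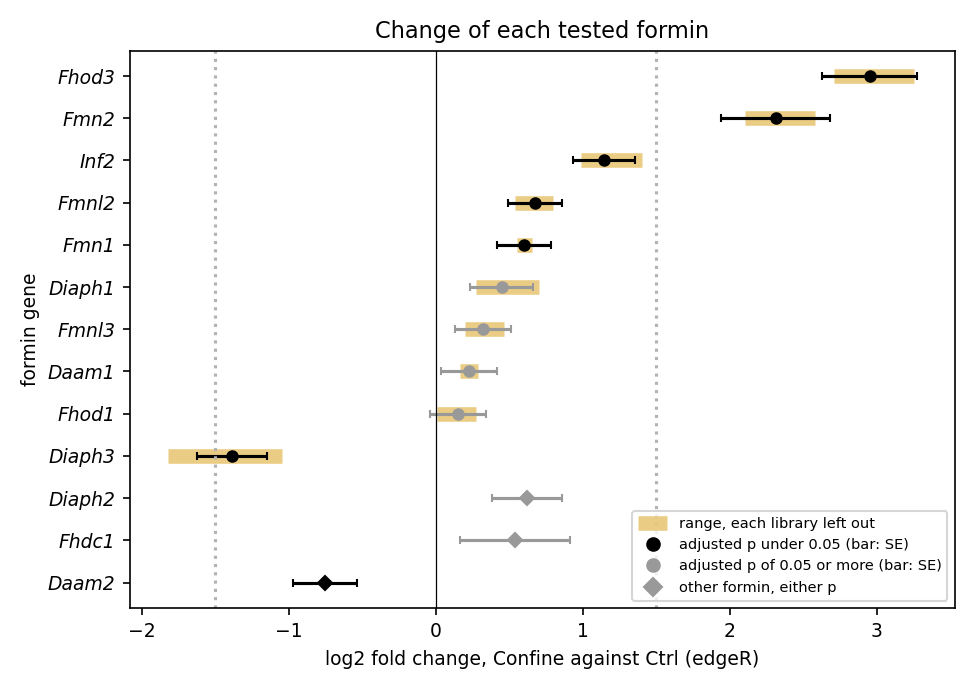
Log2 fold change (Confine against Ctrl, edgeR) of the 10 formins (circles) and of 3 other formins (diamonds), with standard errors. Black marks have an adjusted p under 0.05, grey marks do not, shaded bars give the range of the 10 formins when single libraries are left out, and dotted lines mark 1.5 in each direction. Fhod3 and Fmn2 lie past the line, and the shaded bar of Diaph3, from -1.82 to -1.04, crosses it.

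The mouse has other formin genes outside these 10, and 5 of them were read from the same fit. Of these, 3 were tested and 1, Daam2, had an adjusted p under 0.05. Daam2, the close relative of Daam1, had 19.1, 14.5 and 18.6 normalized CPM in Ctrl and 9.22 and 11.4 in Confine, and its log2 fold change was -0.76 (SE 0.22, edgeR adjusted p = 0.0165). The adjusted p of Daam2 was 0.0687 without Ctrl replicate 1, 0.196 without the repeated Confine library and 0.0549 without Confine replicate 3. Diaph2, the third diaphanous formin, had 6.05, 7.71 and 5.27 normalized CPM in Ctrl and 9.80 and 9.73 in Confine, with a log2 fold change of 0.62 (edgeR adjusted p = 0.0670), and shares such stretches with 20 other genes. Fhdc1, a formin that also binds microtubules, had a log2 fold change of 0.54 (edgeR adjusted p = 0.336). Fmnl1, known from leukocytes, had at most 2 counts in a library, and Grid2ip, known from Purkinje cells, at most 7. Among these 15 formins, 0 pairs had transcripts in common over 100 bp or longer at 95% identity.

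The summed level of the 10 formins was 299, 388 and 278 normalized CPM in Ctrl and 477 and 481 in Confine. Both Confine libraries were above the Ctrl libraries. The means were 322 ± 58.4 (SD, n = 3) and 479 ± 2.81 normalized CPM (SD, n = 2), a ratio of 1.49, which became 1.28 with library size alone and 1.66 without Ctrl replicate 2. Inf2 made up 106 of the 157 normalized CPM by which the means differed, or 67.8%. Without Inf2, the sum was 223, 272 and 209 normalized CPM in Ctrl and 295 and 275 in Confine.

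The share of each formin in the summed CPM does not depend on how libraries are scaled. The share of Inf2 was 25.6%, 30.1% and 25% in Ctrl and 38.2% and 42.8% in Confine. The share of Diaph3 was 9.68%, 9.41% and 9.44% in Ctrl, a narrow range, and 1.81% and 3.08% in Confine. The shares of Fmn2 and Fhod3 were the smallest in every Ctrl library. Fmn2 held 0.231%, 0.253% and 0.183% in Ctrl and 0.715% and 0.809% in Confine, and Fhod3 held 0.323%, 0.165% and 0.519% in Ctrl and 1.70% and 1.58% in Confine. The share of Fhod1 went from 17.5% ± 1.62 (SD, n = 3) in Ctrl to 13% ± 1.76 (SD, n = 2) in Confine, and that of Fmnl3 from 14.8% ± 0.566 to 12.4% ± 1.51, neither with overlap, although the CPM of neither gene was lower in Confine. For these 6 genes the two-sided exact permutation test gave p = 0.1, the smallest that 3 libraries against 2 allow, and 0.167 after Benjamini-Hochberg adjustment over the 10 shares. The share of Daam1 was 5.09% ± 0.839 in Ctrl and 3.93% ± 0.214 in Confine (exact permutation p = 0.2, adjusted 0.286). The shares of Fmn1, Fmnl2 and Diaph1 overlapped between the groups, with 6.28%, 8.08% and 11.3% in Ctrl and 6.32%, 8.51% and 10.5% in Confine. Of the 5 genes higher with an edgeR adjusted p under 0.05, Inf2, Fhod3 and Fmn2 held a larger share in both Confine libraries. Fmn1 and Fmnl2 did not.

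**Figure D4:**
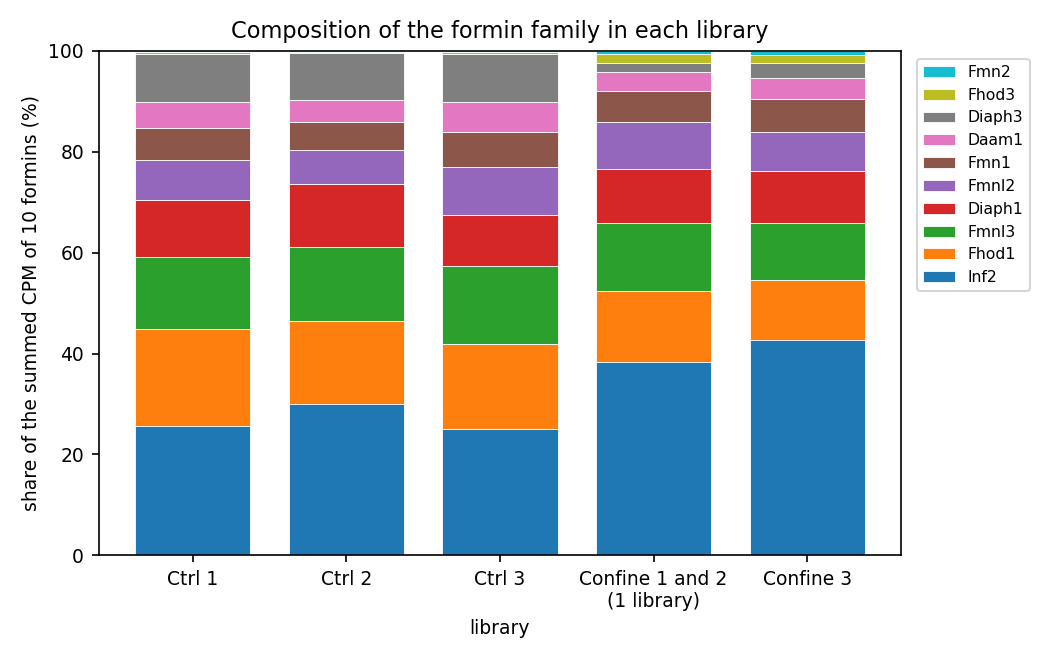
Share of each formin in the summed CPM of the 10 formins (%, stacked to 100) in the 3 Ctrl libraries and the 2 different Confine libraries. The Inf2 segment widens from between 25% and 30.1% in Ctrl to 38.2% and 42.8% in Confine, while the Diaph3 segment narrows to 1.81% and 3.08%.

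Levels of different genes were compared per kb of annotated exon. In Ctrl the order was Inf2 (18.0 ± 5.23 CPM per kb, SD, n = 3), Fhod1 (12 ± 1.77), Fmnl3 (9.46 ± 1.62), Diaph1 (5.83 ± 1.71), Diaph3 (5.50 ± 0.955), Fmnl2 (4.53 ± 0.254), Daam1 (1.99 ± 0.110), Fmn1 (1.30 ± 0.0930), Fhod3 (0.140 ± 0.0557) and Fmn2 (0.0915 ± 0.0299). The ranges over libraries overlapped between Fhod1 and Fmnl3, between Diaph1 and Diaph3, between Diaph3 and Fmnl2, and between Fhod3 and Fmn2, so these neighbours were not separated. In Confine, Inf2 stood further from the rest, with 39.8 ± 3.38 CPM per kb (SD, n = 2) against 13.3 ± 1.73 for Fhod1, the next gene. Diaph3 moved from rank 5 to rank 7, at 2.11 ± 0.782 CPM per kb, where its range overlapped those of Daam1 and Fmn1. Fhod3 (1.08 ± 0.0512) and Fmn2 (0.459 ± 0.0425) kept the last 2 ranks, and their ranges no longer overlapped. The exon length used joins all annotated exons of a gene, 15397 bp for Fmn1, which lowers the value of a gene whose cells use shorter transcripts.

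Of 17 tested regulators and binding partners of formins, 3 were higher and 1 lower with an adjusted p under 0.05, near the 23.0% of all tested genes that passed, and the median log2 fold change was -0.096. Spire1, the nucleator that works with Fmn2 and was chosen after its value was seen, had 18.2, 19.5 and 15.5 normalized CPM in Ctrl and 34.4 and 40.6 in Confine. In the edgeR fit the log2 fold change came to 1.08 (SE 0.19, adjusted p = 3.24e-04). Spire2, the other Spire gene tested, went the other way, with a log2 fold change of -0.50 (edgeR adjusted p = 0.359). Iqgap1, a scaffold that binds Diaph1 and is the most abundant gene of this list, had a log2 fold change of 0.99 (edgeR adjusted p = 4.00e-04). The called gene was Prkg1, a cGMP-dependent kinase, which was low throughout: it had 25, 19 and 6 counts in Ctrl and 1 and 2 in Confine, a ratio that rests on few reads. Its edgeR adjusted p of 0.00943 became 0.128 without the repeated Confine library and 0.0614 without Confine replicate 3. Mapre1, a microtubule plus end protein, and Cttn, cortactin, were abundant and had log2 fold changes of -0.23 and -0.079 (edgeR adjusted p = 0.403 and 0.802). Mapre1 shares stretches of 100 bp or longer at 95% identity with 64 other genes, so its level is uncertain.

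Among actins, profilins and capping proteins, 2 of 16 tested genes were higher and 1 was lower with an adjusted p under 0.05, where 23.0% of all tested genes passed, 0 were called, and the median log2 fold change was 0.011. The list also held Cfl1, which encodes cofilin, a protein that severs filaments. The 3 most abundant, Actb, Cfl1 and Actg1, overlapped between the groups. Their log2 fold changes were -0.013, -0.011 and 0.044 (edgeR adjusted p = 0.970, 0.974 and 0.902). Stretches of 100 bp or longer with at least 95% identity link Actg1 to 8 other genes, Actb to 4 and Cfl1 to 3, so some of their reads could have been counted elsewhere. The lower gene was Pfn1, the main profilin, chosen after its value was seen. It had 160, 81.1 and 63.6 normalized CPM in Ctrl and 47.3 and 50.7 in Confine, with Ctrl replicate 1 far above the rest. edgeR put the difference at -1.05 on the log2 scale (SE 0.29, adjusted p = 0.0120), and -0.57 (adjusted p = 0.0923) without Ctrl replicate 1. The adjusted p was 0.178 by DESeq2, 0.126 without the repeated Confine library, 0.0962 without Confine replicate 3 and 0.167 with the replicate block and the repeated library as number 2. Capg, which caps barbed ends and was also chosen after its value was seen, had 556 ± 41.2 normalized CPM in Ctrl and 1024 ± 10.9 in Confine, a log2 fold change of 0.88 (edgeR adjusted p = 8.91e-04).

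Formin activity is known to release the coactivator MRTF, which acts with SRF on genes of the cytoskeleton. Of 20 tested genes of this axis, 3 were higher and 2 lower with an adjusted p under 0.05, near the 23.0% of all tested genes, and the median log2 fold change was -0.033. Ccn2, a matricellular growth factor that other pathways also drive, was called higher, with 6.69 ± 2.64 normalized CPM in Ctrl (SD, n = 3) and 31.8 ± 0.867 in Confine (SD, n = 2) and a log2 fold change of 2.24 (edgeR adjusted p = 2.64e-06). Myl9, a myosin light chain, was called lower, with 26.9 ± 9.81 and 8.19 ± 3.27 normalized CPM and a log2 fold change of -1.71 (edgeR adjusted p = 2.49e-04). Myl9 lay above the cutoff of -1.5 without Ctrl replicate 1 (-1.38) and without Confine replicate 3 (-1.36). Tagln2 and Tpm4 had log2 fold changes of 0.54 and 0.57 (edgeR adjusted p = 0.0364 and 0.0381), which became 0.177 and 0.163 with library size alone and rose above 0.05 without Ctrl replicate 2, Ctrl replicate 3 or either Confine library, and Flna, filamin A, of -0.094 (adjusted p = 0.769).

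**Figure D5:**
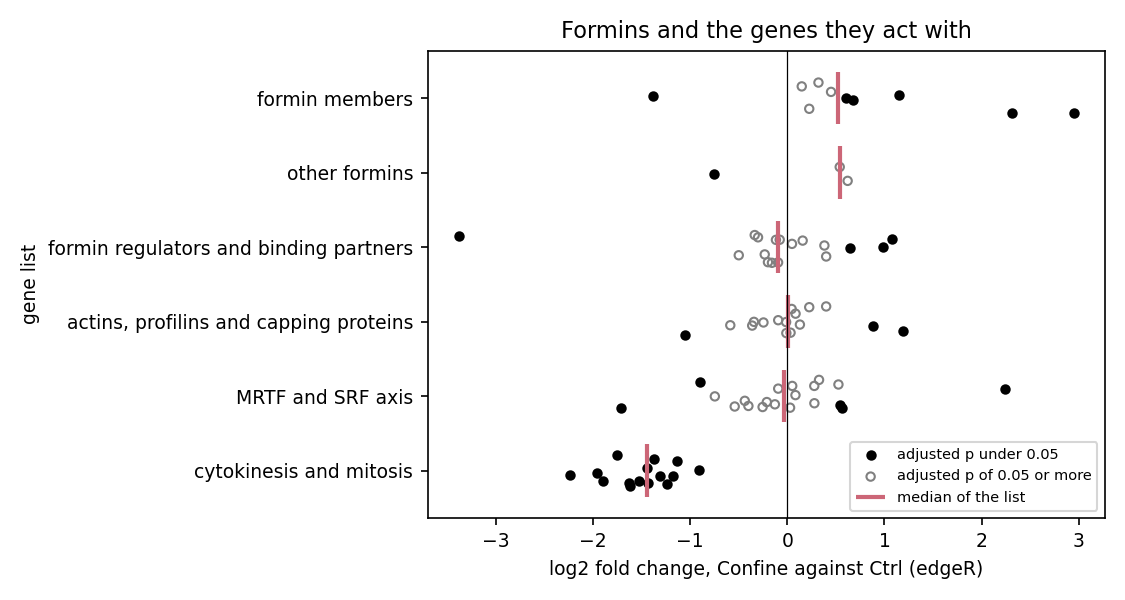
Log2 fold change (Confine against Ctrl, edgeR) of each tested gene in 6 lists, with filled points for an adjusted p under 0.05 and a red line at each list's median. The medians are 0.53 for the 10 formins and 0.54 for the 3 tested other formins. They lie between -0.096 and 0.011 for the regulators, the actins and the MRTF and SRF genes. All 15 genes of cytokinesis and mitosis lie under 0.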

How the data were processed

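RNA-seq was made from 6 MEF samples, 3 labelled Ctrl and 3 labelled Confine. The authors purified polyadenylated RNA, made dUTP-marked libraries and deposited raw counts per gene, without normalization. The submitters' processing notes name Trim Galore 0.6.10, HISAT2 2.1.0, SAMtools 1.5, featureCounts and the build mm10. Strand settings and the annotation are not given in the sources used here. Of 55335 gene identifiers, 54587 were in GENCODE M21 (GRCm38) under the same version and 55154 under any version. Gene names, positions and exon lengths came from that annotation. Columns not used numbered 0.

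The identical Confine columns entered once, so the fit has 3 residual degrees of freedom where 3 against 3 samples had been deposited. Genes kept by filterByExpr were normalized by TMM and tested with edgeR 4.0.16 (quasi-likelihood test, no replicate block) in R 4.3.3, and standard errors are the log2 fold change divided by the root of the F statistic. Normalized CPM are counts scaled to a common library size with TMM. The test was checked on simulated data. Transcripts were compared with each other by blastn 2.17.0. Alternatives were DESeq2 1.42.0, limma-voom (limma 3.58.1), other normalizations, filters and cutoffs, the replicate block, the identical columns counted as 2 samples and each library left out. The members and lists were chosen with earlier results of these data known. The genes named were the 15 formins, up to 6 called members and the 3 most abundant others of each list, the 3 genes nearest to each called formin, overlapping genes, and markers over 1 normalized CPM (up to 4 a list). One further list of genes is not reported here.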

Additional observations from a re-analysis of the deposited data

How the results depend on the processing

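When single libraries were left out, the number of formins called ranged from 2 to 3 and the number with an adjusted p under 0.05 from 4 to 8. The log2 fold change ranged from 2.11 to 2.58 for Fmn2, 2.71 to 3.25 for Fhod3, 0.99 to 1.40 for Inf2, 0.54 to 0.80 for Fmnl2, 0.55 to 0.66 for Fmn1, 0.27 to 0.70 for Diaph1, 0.20 to 0.47 for Fmnl3, 0.16 to 0.29 for Daam1, 0.011 to 0.27 for Fhod1 and -1.82 to -1.04 for Diaph3. Fits that left out a Confine library assume that the remaining one varies like Ctrl. The change in share lay between -7.70 and -6.43 percentage points for Diaph3 and between -3.46 and -1.32 for Fmnl3, and the ratio of the family totals lay between 1.39 and 1.66.

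DESeq2, limma-voom, RLE factors and both filters on low counts each gave 2 formins called and 6 with an adjusted p under 0.05. For the settings that changed a value, the cause was not tested. With no cutoff on the fold change 6 formins were called, with an absolute log2 fold change above 1 there were 4, and with glmTreat 1 (Fhod3). The glmTreat test leaves the log2 fold changes as they are, and at 2.31 for Fmn2, 1.15 for Inf2, 0.67 for Fmnl2, 0.60 for Fmn1 and -1.39 for Diaph3 it gave adjusted p from 0.178 to 1. With library size alone, Fmn1 was at 0.39 and Fmnl2 at 0.46, with adjusted p over 0.05, Fhod1 turned to -0.063, and the family ratio was 1.28. Per kb of exon, the share of Fmn2 rose by 0.368 and that of Fhod3 by 0.974 percentage points, in place of 0.540 and 1.30. With 15 formins in the total, the share of Diaph3 changed by -6.46 points in place of -7.06. Over all tested genes, 1271 were called, against 812 with at least 10 counts in every library and 357 with glmTreat.

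Whether equal replicate numbers mark pairs could not be settled. Across genes, the difference between the repeated Confine library and Confine replicate 3 was correlated with the difference between the same-numbered Ctrl libraries. The correlation was -0.058 with the repeated library as number 2 and 0.057 as number 1. A single difference per group cannot decide on pairing, and genes are not independent replicates. With the replicate block and number 2, Fmn1 was at 0.56 and Fmnl2 at 0.62 with adjusted p over 0.05, leaving 4 formins under it. With number 1, Diaph1 at 0.71 and Fmnl3 at 0.47 passed, making 8. The block leaves 1 residual degree of freedom. With either block, 2 formins were called.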
